A study of Sus scrofa with 6 samples.

Results

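Among the porcine miRNAs that the study listed as known, 37 carry a number of 2000 or more in their name, and these 37, both arms included, are described here. They were taken by name alone from a table of 1143 miRNAs, of which 433 were known. The rule used no measured value, but it was set with earlier results of these data known. They come from 21 hairpins, of which 16 have both arms in the table and 5 have 1. The lowest-numbered member belongs to miR-2320, and the known miRNA just below the limit was miR-1839, whose 5p arm had 9.91 ± 5.15 normalized reads in the LW and 5.97 ± 2.25 in the MS libraries (SD, n = 3). The libraries are small RNA from the long back muscle (longissimus dorsi) of 3 Large White (LW) and 3 Meishan (MS) fetuses. LW is a lean type and MS a Chinese indigenous obese type. All fetuses were female and untreated, each came from a different sow mated within its breed, and each library is 1 animal. They were taken at 35 dpc (days post-conception) by the methods, although the labels carry an age of 2 years and speak of adults. The unit, called normalized reads, is the count of reads of the leading sequence of a miRNA, scaled within the library by the authors.

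A miRNA is cut from a folded precursor, the hairpin, whose arms give a 5p and a 3p product. One product is usually loaded into an Argonaute protein and guides it to messenger RNAs, mostly through the bases near its 5′ end that are called the seed. Numbers in miRNA names are handed out roughly in the order of discovery, so the widely conserved families hold low numbers. The numbers from miR-2320 to miR-2483 were first given to cattle miRNAs, and those from miR-4331 to miR-4339 and from miR-7134 to miR-7144 to pig miRNAs. Whether these miRNAs occur outside livestock was not tested. By these series the members split into 8 from 4 hairpins, 10 from 6 hairpins and 19 from 11 hairpins.

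The 10 sequences of the 5 hairpins on which most of the results turn are given 5′ to 3′ as listed in the table, in DNA letters, with the seed (bases 2 to 8) in capitals. They are shown because these hairpins hold the 7 members that were called in every fit that tested them.
miR-2320-5p: tGGCACAGggtccagctgtcggc
miR-2320-3p: cGATGATGgtccctgtgtttgt
miR-2483-5p: tCCGTCAAccatccagctgttt
miR-2483-3p: aAACATCTggttggttgagaga
miR-4331-5p: tGGCGTAGatcacagacacagc
miR-4331-3p: tGTGGCTGtggcgtaggccagc
miR-4332-5p: tGTCGCGGgggtgggcgggc
miR-4332-3p: cCCCGGTCggcgtccacggc
miR-7134-5p: aTGTCCGCgggttccctatcc
miR-7134-3p: aTGCGGAAcctgcggatacgg

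The hairpins show how the arms lie in their precursors, with both listed arms in capitals. Positions are those of the authors' hairpin list on Sscrofa 10.2. mir-7134 lies on the plus strand at chr5:5388521-5388582, and its arms reach both ends of the listed precursor. The others lie on the minus strand, mir-2320 at chr6:60147823-60147903, mir-4331 at chr6:60130099-60130178, mir-4332 at chr6:870446-870551 and mir-2483 at chrX:117608200-117608279.
mir-7134: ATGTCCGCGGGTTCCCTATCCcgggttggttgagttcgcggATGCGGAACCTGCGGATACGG
mir-2320: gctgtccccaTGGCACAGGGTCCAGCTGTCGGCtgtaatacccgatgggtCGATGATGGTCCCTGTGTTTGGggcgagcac
mir-4331: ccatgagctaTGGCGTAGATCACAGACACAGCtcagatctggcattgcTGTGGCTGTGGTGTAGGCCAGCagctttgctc
mir-4332: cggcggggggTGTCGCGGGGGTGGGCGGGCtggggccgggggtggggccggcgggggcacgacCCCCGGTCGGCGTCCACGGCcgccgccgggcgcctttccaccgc
mir-2483: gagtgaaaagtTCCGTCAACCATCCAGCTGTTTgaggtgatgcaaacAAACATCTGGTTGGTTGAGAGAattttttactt

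On Sscrofa 10.2 the hairpins of miR-2320 and miR-4331 were 17.6 kb apart on the same strand. In the RefSeq annotation of another build, Sscrofa11.1, 19 of the 21 hairpins had an entry, none of the 19 had another annotated miRNA within 50 kb, and 15 lay within the span of a protein-coding gene (strand was not compared). mir-7134 lies within the span of TNRC6B, which encodes a GW182 protein of the miRNA silencing complex. mir-2483 lies within TENM1, which encodes a teneurin of the cell surface. mir-7138 lies within FGFR4, a fibroblast growth factor receptor gene known from muscle progenitors, and mir-7139 within E2F7, which encodes a repressor of cell cycle genes. mir-4332 and mir-4339 were the hairpins with no entry.

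No 2 members shared a seed, and 29 of the 37 shared theirs with no other miRNA in the table. Their listed sequences were 18 to 25 bases long with a median of 22, the median of all listed miRNAs. Their median GC content was 54.5%, against 47.8% in the other known miRNAs, and among the 22 members with enough reads to test it was 59.1%. The range was wide, from 31.8% in miR-4337-3p to 85% in both arms of miR-4332.

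The listed sequence of 10 of the 37 members (27.0%) ended in a T that the listed hairpin does not hold, against 25 of 389 other known miRNAs with a hairpin (6.43%). The 5 tested members among the 10 are shown, with the final T in capitals.
miR-2320-3p: cgatgatggtccctgtgtttgT
miR-2366-1-3p: tgggtcacagaagagggtctggT
miR-2411-3p: tgaactgtcatactcccacatcT
miR-7138-3p: gaggactggccttgcagggtgT
miR-4339-3p: agaggagccgcgacagagccgT
Counted from 1 at the 5′ end of the listed sequence, with the base of the hairpin first, these are G22T, G23T, C23T, C22T and G22T. For mir-2411 and mir-2483 the authors' list gives the arms with 2 different hairpin sequences, and the differences named here are against the one as long as the stated interval. Inside the sequence miR-4331-3p differed from its hairpin by T12C. Among the untested members miR-4334-5p differed by G3T, miR-4338-3p by G11A and miR-7140-5p by A7T. Of these G3T and A7T lie within the seed. In the authors' list capitals mark the mature miRNA of miRBase, and 31 members overlapped such a marked part, of which 20 began at its first base. miR-4332-3p overlapped it by only 6 bases, because the listed sequence starts 14 bases upstream, and miR-4334-5p also by 6. Of the tested members miR-4332-5p, miR-4331-5p and miR-4339-3p had no marked counterpart. Of the others miR-2366-1-5p, miR-4337-3p and miR-4338-3p had none. Reads under the names of these members therefore do not stand for a mature sequence that the list marks.

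The libraries held 1038988 to 3419280 reads of listed miRNAs, recovered from the steps between low values. MS replicate 3 was the shallowest, and there 1 read was worth 1.69 normalized reads, against 0.720 to 1.25 in the others. All libraries held muscle miRNAs such as miR-1, miR-133 and miR-206, with a summed level over the 8 lines listed of 19819 to 24655 normalized reads in LW and 66036 to 96841 in MS. The summed level of the cartilage miRNA miR-140 was 54414 to 71203 in LW and 4540 to 10576 in MS, and that of the liver miRNA miR-122 was 183 to 2864 in LW and 47.5 to 89.1 in MS. The erythroid list reached 3510 to 4571 in LW and 6107 to 10782 in MS, the leukocyte list 277 to 444 and 1235 to 1699, the neural list 443 to 1429 and 1847 to 4522, the endothelial list 5134 to 8860 and 10500 to 13989, and the epithelial list 127 to 248 and 425 to 1252. Each of these lists was separated by breed, and their part in the differences of the members was not tested. In whole muscle, fewer cells of a type and less RNA per cell cannot be told apart.

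The members together were a small part of the miRNA reads. They held 0.491%, 0.454% and 0.532% of the listed reads in LW replicates 1, 2 and 3, and 0.179%, 0.398% and 0.303% in MS replicates 1, 2 and 3. The mean share was 0.492% ± 0.0389 in LW and 0.293% ± 0.110 in MS (SD, n = 3), and each LW library was above each MS library. Without miR-7134-3p the share was 0.230% ± 0.0205 in LW and 0.256% ± 0.109 in MS (SD, n = 3), and the breeds overlapped. The leading member also changed, as miR-7134-3p took 53.5% of the LW and 12.5% of the MS member reads, whereas miR-4332-3p took 13.5% and 59.6%. miR-2320-5p went from 12.9% in LW to 1.88% in MS.

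The members with a breed mean above 1000 normalized reads were 3, miR-7134-3p, miR-4332-3p and miR-2320-5p, and 12 had one of at least 100. The most abundant, miR-7134-3p, stood at place 58 among all listed miRNAs in LW and at place 173 in MS. Of the 37 members, 25 were above 0 in all 6 libraries and 6 in 1 library only.

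**Figure D1:**
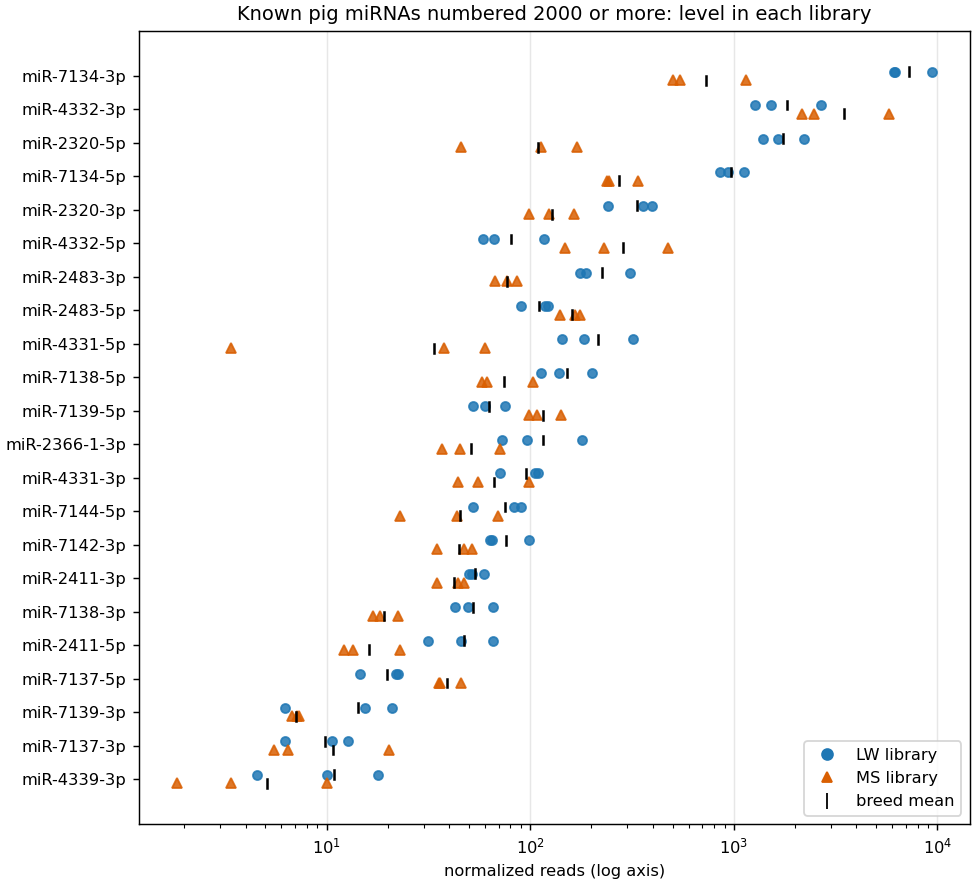
Normalized reads (horizontal log axis) of the 22 tested miRNAs numbered 2000 or more, 1 row each, ordered by their summed breed means; circles are the 3 LW libraries, triangles the 3 MS libraries and black ticks the breed means. The libraries of the breeds do not overlap for 16 of the 22 (72.7%), against 67.7% of all 548 tested miRNAs. MS replicate 3 of miR-4331-5p lies far to the left, at 3.38.

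LW and MS were compared with limma on log2(normalized reads + 1), in 1 fit of all 548 miRNAs that averaged 10 or more in a breed. Log2 fold changes above 0 stand for a higher level in MS, and a miRNA is called where its Benjamini-Hochberg adjusted p is under 0.05. Of the 37 members 22 reached this mean and were tested, and 13 of the 22 (59.1%) were called, against 62.2% of all 548. Members were called lower in MS in 10 cases (45.5%) and higher in 3 (13.6%), whereas over all 548 the shares were 28.1% lower and 34.1% higher. Their median log2 fold change was -0.92, and that of all tested miRNAs 0.11. The libraries of the breeds did not overlap for 16 members (72.7%), against 67.7% of all tested miRNAs, and for 12 of the 22 (54.5%) with MS lower, against 31.0%.

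This split moved little with 2 of the other scalings. TMM scaling by edgeR called 13 members, 10 lower and 3 higher, and median-of-ratios scaling 12, 10 lower and 2 higher. Over all 548 miRNAs the former called 161 lower and 181 higher, and the latter 164 lower and 179 higher. The split moved more with equal sums and with the GC correction. Scaling to equal sums of listed reads shifted the median of all tested miRNAs up by 0.51, to 0.62. Of the 21 members tested then, 13 were again called, 8 lower and 5 higher, and the median of the members was -0.38. Over all miRNAs tested in that fit 65.3% were called, 21.4% lower and 43.9% higher. With GC content corrected library by library, the median of all tested miRNAs shifted by -0.17, to -0.06. In that fit 12 members were called, 8 lower and 4 higher, and the median of the members was -0.47. Of all 548 in that fit 59.9% were called, 29.0% lower and 30.8% higher. Whatever the scaling, filter, tool or library left out, 7 members were called in the same direction in every fit that tested them. These were both arms of miR-7134, both arms of miR-2320, miR-2483-3p and miR-4331-5p, all lower in MS, and miR-4332-5p, higher in MS. How many of all tested miRNAs kept their call in every fit was not counted, so this number has no background beside it.

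**Figure D2:**
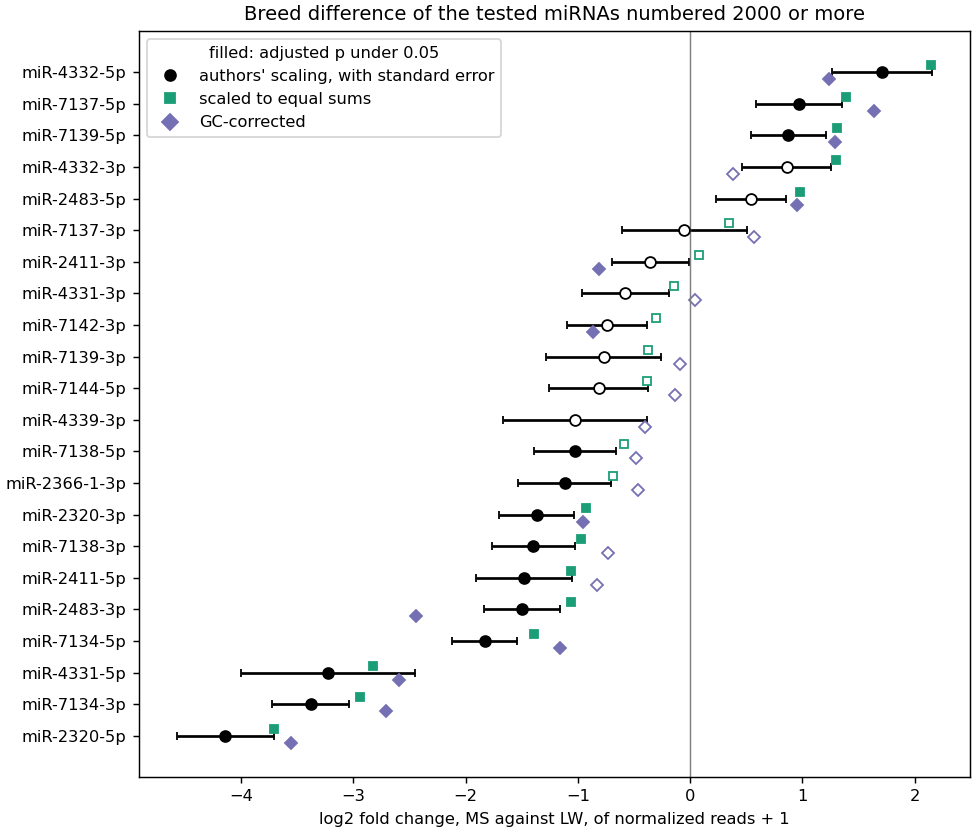
log2 fold change of MS against LW (horizontal axis) for the 22 tested miRNAs numbered 2000 or more; black circles with bars are the values and standard errors under the authors' scaling, squares those after scaling to equal sums and diamonds those after the GC correction, filled where the adjusted p is under 0.05. The lowest values, from miR-2320-5p at -4.14 to miR-7134-5p at -1.83, stay filled under all 3, and several between -1.5 and -1 do not.

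The cattle-numbered series held the largest fall of all members. miR-2320-5p was at 1383, 2210.1 and 1645 normalized reads in LW and at 169, 45.9 and 113 in MS. Every LW library was far above every MS library, and MS replicate 2 was the lowest. The means were 1746 ± 423 in LW and 109 ± 61.7 in MS (SD, n = 3), a log2 fold change of -4.14 (SE 0.43, limma adjusted p = 9.6e-06). Its partner miR-2320-3p was at 242, 359 and 398 in LW and at 98.6, 123 and 164 in MS, again without overlap but with a smaller fall of -1.37 (SE 0.33, limma adjusted p = 0.0036).

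The arms of miR-2483, from the X chromosome of female fetuses, went different ways. miR-2483-3p was at 188, 177 and 311 normalized reads in LW and at 76.99, 67.0 and 86.3 in MS. All MS libraries lay below all LW libraries, with a log2 fold change of -1.50 (SE 0.34, limma adjusted p = 0.0021). miR-2483-5p was at 90.2, 122 and 119 in LW and at 166, 140 and 176 in MS. Here the MS libraries were the higher ones, without overlap, but its value of 0.54 (SE 0.31, limma adjusted p = 0.15) did not pass the test. It passed after scaling to equal sums (0.98) and after the GC correction (0.95).

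miR-2411-5p was at 31.3, 45.6 and 65.8 normalized reads in LW and at 12.2, 23.0 and 13.5 in MS, a log2 fold change of -1.48 (SE 0.43, limma adjusted p = 0.0095). The call ended after the GC correction (-0.83) and without LW replicate 3 (-1.22). miR-2411-3p differed less, with 53.8 ± 4.88 in LW and 42.1 ± 6.50 in MS (SD, n = 3), without overlap. Its value of -0.35 did not pass, but it passed after the GC correction (-0.81). miR-2366-1-3p was at 72.7, 179 and 95.9 in LW and at 45.3, 36.7 and 71.1 in MS, where LW replicate 1 and MS replicate 3 nearly met. Its log2 fold change was -1.12 (SE 0.42, limma adjusted p = 0.033). That call ended, among other fits, when LW replicate 2 (-0.75), LW replicate 3 (-1.20), MS replicate 1 (-1.06) or MS replicate 2 (-0.91) was left out, after the GC correction (-0.47) and with scaling to equal sums (-0.68). Of the 7 tested members of this series 5 were called lower, none higher, and their median was -1.37, beside 28.1% lower and 34.1% higher over all tested miRNAs.

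In the first pig-numbered series the abundant member was miR-4332-3p. It was at 2668, 1524 and 1273 normalized reads in LW and at 2154, 5795 and 2482 in MS. The breeds overlapped, because MS replicate 1 lay below LW replicate 1, and MS replicate 2 stood alone at the top. Its log2 fold change of 0.86 (SE 0.40, limma adjusted p = 0.077) did not pass. It passed with scaling to equal sums (1.30) and without LW replicate 1 (1.17), MS replicate 1 (1.13) or MS replicate 3 (1.03), and was 0.42 without MS replicate 2. The partner miR-4332-5p was at 117, 66.7 and 58.5 in LW and at 149, 477 and 230.1 in MS. MS replicate 2 was again the highest, and the breeds did not overlap. Its log2 fold change was 1.71 (SE 0.44, limma adjusted p = 0.0051), and it was 1.26, still called, without MS replicate 2. Of 548 tested miRNAs the arms of miR-4332 ranked 15 and 16 for the excess of MS replicate 2 over the other MS libraries, 1.33 log2 units for 5p and 1.32 for 3p.

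miR-4331-5p was at 183, 143 and 319 normalized reads in LW and at 59.7, 37.6 and 3.38 in MS. The last value rests on 2 reads in MS replicate 3, whose exact Poisson 95% interval is 0.410 to 12.2 normalized reads and covers counting error only. The breeds did not overlap, and the log2 fold change was -3.23 (SE 0.78, limma adjusted p = 0.0032). Without MS replicate 3 it was -2.07 and still called. Its pooled SD of 1.49 log2 units was the second largest among the 548 tested miRNAs, and its drop in MS replicate 3 below the other MS libraries was the deepest of all. The other arm did not share this, since miR-4331-3p had values of 109, 70.8 and 106 in LW and at 55.4, 99.2 and 44.0 in MS. These ranges overlapped, and its value of -0.58 did not pass. It was 0.04 after the GC correction, and so changed sign. miR-4339-3p, with 10.8 ± 6.70 in LW and 5.10 ± 4.38 in MS (SD, n = 3), also overlapped and did not pass (-1.02, limma adjusted p = 0.18). Of the 5 tested members of this series 1 was called higher and 1 lower, beside 62.2% called over all tested miRNAs.

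The second pig-numbered series held the most abundant member. miR-7134-3p was at 6122, 6201 and 9383 normalized reads in LW and at 543, 505 and 1142 in MS. The lowest LW library was more than 5 times the highest MS library, and MS replicate 3 was the highest of its breed. The means were 7235 ± 1860.1 in LW and 729.9 ± 357 in MS (SD, n = 3), a log2 fold change of -3.38 (SE 0.34, limma adjusted p = 7.9e-06). Over all fits that tested it the value ran from -3.76 to -2.71. miR-7134-5p was at 851, 938 and 1119.9 in LW and at 245, 238 and 338 in MS. Both arms thus fell without overlap, the 5p arm by less, at -1.83 (SE 0.29, limma adjusted p = 0.00017).

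Both arms of miR-7138 were lower in MS. miR-7138-5p was at 113, 202 and 139 normalized reads in LW and at 61.2, 57.8 and 103 in MS, a log2 fold change of -1.03 (SE 0.37, limma adjusted p = 0.028). miR-7138-3p was at 42.6, 49.6 and 65.8 in LW and at 22.3, 18.4 and 16.9 in MS, a log2 fold change of -1.40 (SE 0.37, limma adjusted p = 0.0060). Neither overlapped between breeds. Both calls ended after the GC correction, at -0.48 for 5p and -0.73 for 3p. The call of the 5p arm also ended with scaling to equal sums (-0.59) and without LW replicate 2 (-0.80), LW replicate 3 (-1.07), MS replicate 1 (-0.92) or MS replicate 2 (-0.88).

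The other calls in this series were higher in MS. miR-7139-5p was at 52.6, 60.2 and 74.9 normalized reads in LW and at 141.8, 107 and 98.1 in MS, a log2 fold change of 0.87 (SE 0.33, limma adjusted p = 0.037). miR-7137-5p was at 22.6, 14.6 and 21.9 in LW and at 36.0, 35.8 and 45.7 in MS, a log2 fold change of 0.97 (SE 0.38, limma adjusted p = 0.042). Neither overlapped, and both passed narrowly. The call of miR-7137-5p ended when any single library was left out (0.78 to 1.08) and that of miR-7139-5p without LW replicate 1 (0.76), LW replicate 2 (0.85), MS replicate 1 (0.72) or MS replicate 2 (0.92). Both also ended without the filter and with a block for the replicate number, and that of miR-7137-5p with median-of-ratios scaling (0.90).

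The remaining tested members of this series did not pass. miR-7142-3p averaged 75.7 ± 19.9 normalized reads over the LW libraries and 44.7 ± 8.77 over the MS libraries (SD, n = 3), without overlap, at -0.74 (limma adjusted p = 0.091), and passed after the GC correction (-0.87). miR-7144-5p had 75.3 ± 20.005 in LW and 45.4 ± 23.2 in MS (SD, n = 3), at -0.81 (limma adjusted p = 0.12), and passed without MS replicate 3 (-1.18). miR-7139-3p had 14.2 ± 7.45 in LW and 7.10 ± 0.300 in MS (SD, n = 3), at -0.77 (limma adjusted p = 0.21), and passed without LW replicate 1 (-1.23). miR-7137-3p had 9.88 ± 3.32 in LW and 10.8 ± 8.28 in MS (SD, n = 3), at -0.05, a value that changed sign between fits. Of the 10 tested members of this series 4 were called lower and 2 higher, close to the 62.2% called over all tested miRNAs.

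For 4 members of this series the table lists a second line under a candidate name, from an overlapping hairpin on the same strand, that holds the member's sequence with 1 more base at the 3′ end. They are shown with that base in capitals, since their reads and those of the member come from the same place.
PC-364-3p (miR-7139-3p): tagggcacaggatgggatgaggA
PC-338-3p (miR-7137-3p): agctggtctgggagttcccgggT
PC-462-3p (miR-7142-3p): tttgttggctcctctgaagtgaA
PC-316-3p (miR-7135-3p): atctgtctgtgtctctgagcagT
The longer form was the more abundant for miR-7139-3p, as PC-364-3p was at 20.04, 26.8 and 46.6 normalized reads in LW and at 14.4, 5.51 and 10.15 in MS. With the lines added together, an alternative chosen after seeing the data, miR-7139-3p was at 26.3, 42.3 and 67.6 in LW and at 21.6, 12.9 and 16.9 in MS. These no longer overlapped, and the summed line was called lower, at -1.28 (limma adjusted p = 0.023). miR-7142-3p was then at -0.77 and miR-7137-3p at 0.63, neither of which passed.

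The ratio of the arms of one hairpin is formed within a library, so a scaling of the whole library cancels apart from the pseudocount. It was tested with limma on log2((5p + 1)/(3p + 1)) over the 140 known hairpins whose arms both reached the mean of 10. Of these 9 belong to members, and 6 of the 9 were called, against 63.6% of the 140. The ratio moved toward 5p in MS in 4 and toward 3p in 2, and the directions were not counted over the 140.

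Among the tested hairpins of the members, those in which the leading arm differed between the breed means were miR-2320, miR-2483 and miR-4331. How many of all tested hairpins did so was not counted. For miR-2483 the log2 ratio was -1.05, -0.53 and -1.38 in LW and 1.09, 1.05 and 1.02 in MS. The 3p arm led in every LW library and the 5p arm in every MS library, a difference of 2.04 (SE 0.37, limma adjusted p = 0.0013). For miR-2320 the log2 ratio was 2.51, 2.62 and 2.04 in LW and 0.77, -1.40 and -0.53 in MS. The 5p arm led in all LW libraries and in MS replicate 1, and the difference was -2.78 (SE 0.53, limma adjusted p = 0.0016). For miR-4331 it was 0.74, 1.01 and 1.58 in LW and 0.11, -1.37 and -3.36 in MS. MS replicate 1 was near balance, and the difference was -2.65 (SE 0.79, limma adjusted p = 0.016). It was -1.74 without MS replicate 3, still called, and lost the call without LW replicate 3 (-2.42). The listed 3p sequence of miR-4331 differs from this hairpin by T12C and shares its seed with 2 other listed lines. Whether its reads come from this hairpin alone was not tested.

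In the other called hairpins the same arm led in both breeds. miR-7134 kept its 3p arm ahead, with log2 ratios of -2.88 ± 0.17 in LW and -1.33 ± 0.37 in MS (SD, n = 3), a difference of 1.55 (SE 0.30, limma adjusted p = 0.0016). miR-4332 also kept 3p ahead, at -4.47 ± 0.05 and -3.62 ± 0.21 (SD, n = 3), a difference of 0.85 (SE 0.28, limma adjusted p = 0.026). In the authors' list its 5p line has no marked mature part and its 3p line overlaps one by only 6 bases. Whether the reads of these lines are arms cut from the hairpin was not tested. The ratio of miR-4332 was the steadiest within LW, and MS replicate 2, which had the most reads of both arms, lay between the other MS libraries at -3.60. miR-7139 kept 5p ahead, at 2.19 ± 0.60 and 3.83 ± 0.25 (SD, n = 3), a difference of 1.64 (SE 0.52, limma adjusted p = 0.021), or 2.16 with the longer candidate line added to 3p. The call of miR-4332 ended without LW replicate 1 (0.83), LW replicate 3 (0.88) or MS replicate 2 (0.84), and that of miR-7139 without LW replicate 2 (1.497), LW replicate 3 (1.44) or MS replicate 1 (1.498). miR-2411, miR-7137 and miR-7138 did not pass, at -1.13, 1.02 and 0.37.

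**Figure D3:**
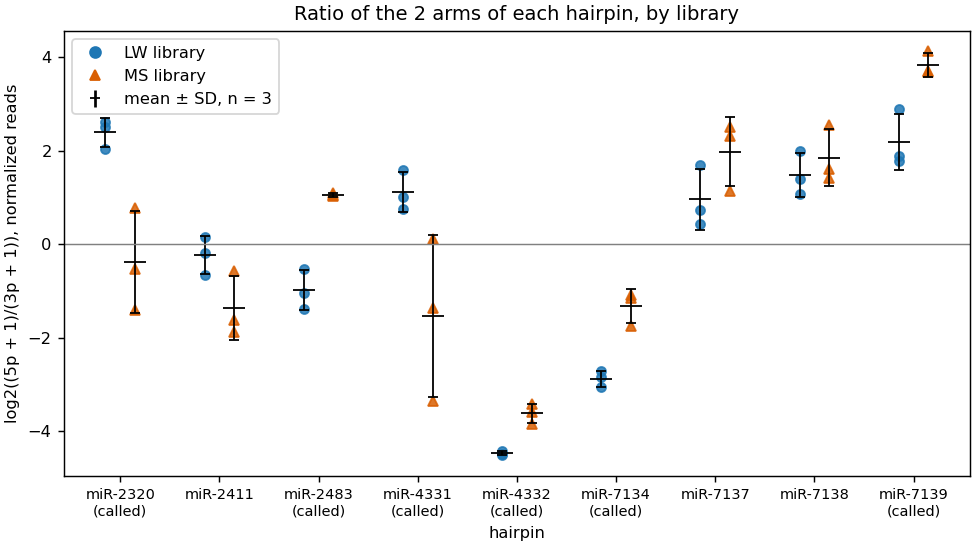
log2 ratio of the 5p to the 3p arm (vertical axis, normalized reads + 1) for the 9 tested hairpins, with LW libraries as circles, MS libraries as triangles and bars for the mean ± SD (n = 3). Above 0 the 5p arm leads; miR-2483 crosses 0 with all libraries, from a mean of -0.99 in LW to 1.05 in MS.

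The level of breed difference among known miRNAs was set beside the number in the name, as a description. Of the known miRNAs numbered below 1000 or named let-7, 63.4% of the 328 tested were called, 91 lower and 117 higher, with a median log2 fold change of 0.17 and a median GC content of 45.8%. Of those numbered from 1000 to under 2000, 9 of 12 were called, 8 lower and 1 higher, with a median of -1.66 and a median GC content of 63.6%. The members, with a median of -0.92 and a median GC content of 59.1%, lay between these bands on both measures. After the GC correction the medians were -0.05 below 1000, -1.27 from 1000 to under 2000 and -0.47 in the members. The correction thus moved the median of each band. The relation of GC content to the differences was not tested, and its part in those of single members was not tested beyond the corrected values given here. miR-2483-3p, with 40.9% GC, fell in MS, and its corrected value of -2.44 was farther from 0 than the uncorrected -1.50. The arms of miR-4332, with 85% GC, were at 1.71 and 0.86, and at 1.24 and 0.39 after the correction.

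**Figure D4:**
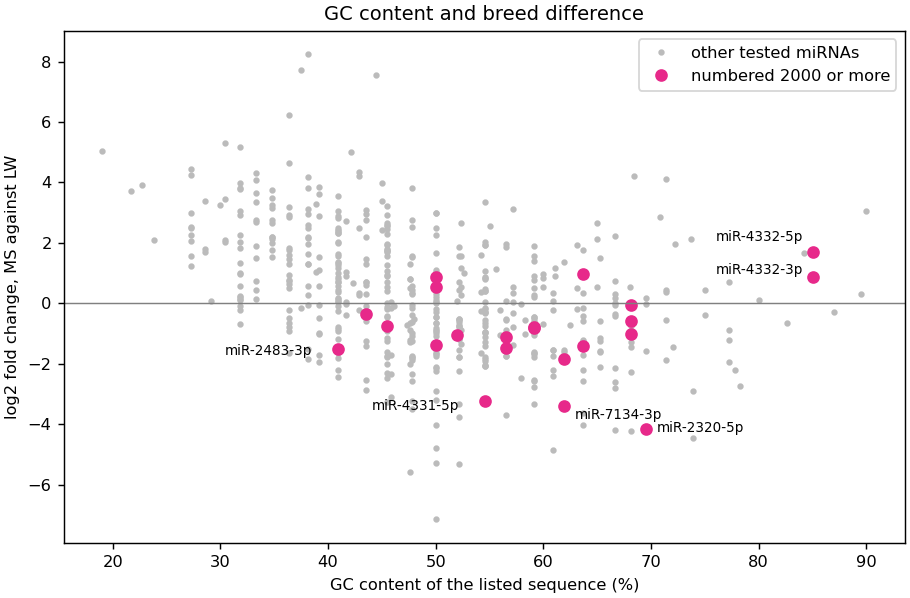
log2 fold change of MS against LW (vertical axis) by the GC content of the listed sequence (horizontal axis, percent) for the 548 tested miRNAs, with the 22 numbered 2000 or more as large points. The points of low GC content lie mostly above 0; miR-2320-5p at 69.6% lies near the bottom, and the arms of miR-4332 at 85% lie above 0.

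The spread between animals of a breed was like that of other miRNAs for most members. The median pooled SD was 0.49 log2 units in the 22 tested members and 0.43 over all 548. It was lowest in miR-2411-3p, at 0.18, and in miR-2483-5p, at 0.21.

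The other 15 members fell under the mean of 10 and were not in the main comparison, and they held 103 reads in all 6 libraries together. Their reads ran from 1 to 35 per miRNA, and 6 of them rested on a single read. The highest breed mean was 6.56, for miR-4337-3p in MS, while the tested member closest to the limit was miR-7137-3p at 10.8. miR-4337-3p had 3, 5 and 4 reads in LW and 15, 6 and 2 in MS, and miR-4338-3p had 1, 1 and 3 in LW and 12, 1 and 1 in MS. In both the highest count was in MS replicate 1. Among the 10 members above 0 in 1 breed only, 6 in MS and 4 in LW, none had more than 8 reads in all. A count of 0 allows up to 2.16 to 5.08 normalized reads, depending on the library, so differences of this size were not detectable at this depth. In the limma fit without the filter, where 36.3% of all 1143 miRNAs were called (17.2% lower and 19.1% higher), 0 of the 15 were called and 1, miR-4337-5p, had an unadjusted p under 0.05, at 1.39 (adjusted p = 0.092). edgeR and DESeq2 were run over the 548 only. The 15 came from both arms of miR-4337, miR-4338, miR-7135, miR-7136 and miR-7140, from single lines of miR-4334, miR-7141 and miR-7143, and from the weaker arms of miR-2366-1 and miR-7144. For miR-4334 the 3p product is the same sequence as miR-339-2-5p, so the table gives them 1 line under the latter name, at 693 ± 190.0 normalized reads over the LW libraries and 1154 ± 693 over the MS libraries (SD, n = 3). That line is not a member, and its reads cannot be told apart between the loci.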

How the data were processed

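Small RNA libraries of 3 LW and 3 MS fetuses were grouped by breed from the sample labels. The deposited values are a signal: the authors trimmed reads and kept 18 to 26 bases with ACGT101-miR (version not given in the sources used here), removed Rfam, NCBI and Repbase matches, mapped to miRBase and Sscrofa 10.2, and scaled the reads of each miRNA's most abundant sequence by the mappable reads of the library. Which total they scaled to is not settled. Low values were whole multiples of the value of 1 read in 93.3% to 95.7% of cases (within 0.1 read), which gave the recovered reads. Depth was 1038988 to 3419280 listed reads.

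The breed test was that of limma 3.58.1 under R 4.3.3 (pseudocount 1, trended eBayes, Benjamini-Hochberg over 548 miRNAs with a mean of at least 10 in either breed). Arm ratios were tested likewise over 140 hairpins. The GC correction took a loess curve (span 0.75) from each library. Alternatives were pseudocounts of 0.5 and 10, 3 other scalings, no filter, a filter at 1000, no trend, a replicate block, edgeR 4.0.16 and DESeq2 1.42.0 on recovered reads (13 members called by each, the same 13), and each library left out. Over all 548 miRNAs edgeR called 340 and DESeq2 344. Steps outside R used Python 3.11.15, pandas 2.3.3 and scipy 1.17.1.

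Members with a mean of at least 10 in either breed are named, with every library where called or at 100 or more. The members and lists were chosen with earlier results of these data known. The code was tested on simulated data. Intervals and floors cover counting error only, as the reads carry no molecular identifiers. A further 4 lines of the list were left unused.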

Additional observations from a re-analysis of the deposited data

How the results depend on the processing

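The 22 tested members were fitted again under 20 alternatives. Of the 13 called, 7 kept call and direction in every fit that tested them and 6 lost the call in at least 1. The same count over all tested miRNAs was not made. With the filter at a mean of 1000 normalized reads only 3 members remained to be tested, so 2 were called, 0 higher and 2 lower. Of all 179 miRNAs tested there 122 were called, 54 higher and 68 lower. Scaling to equal sums called 5 higher, and the fit without the filter 1 higher, beside 43.9% and 19.1% higher over all miRNAs of those fits. The replicate numbers of the breeds did not pair the samples, with correlations of 0.0047, -0.21 and 0.10 between same-numbered libraries. A replicate block gave 10 members called, 1 higher and 9 lower, and 6 hairpins. Of all 548 miRNAs the block called 332, 180 higher and 152 lower, and of all 140 hairpins 84. The calls of miR-2366-1-3p, miR-7137-5p and miR-7139-5p ended under the block. The replicate block with the GC correction gave 4 members higher and 6 lower. Of all 548 miRNAs that fit called 323, of which 168 were higher and the rest lower. Leaving out 1 library gave 9 to 14 members called, 1 to 3 higher and 7 to 11 lower. In these fits 300 to 373 of all 545 to 554 tested miRNAs were called, 127 to 167 lower and at least 168 higher. The count of members called was 9 without LW replicate 2, LW replicate 3 or MS replicate 2. The calls over all tested miRNAs were then 316, 302 and 300, against 341 in the main fit. The count of hairpins with a called arm ratio was 3 to 6, with 3 without LW replicate 3. Over all tested hairpins 77 to 85 were called with 1 library left out, and 79 of 140 without LW replicate 3. The LW share of listed reads, 0.492%, was 0.230% without miR-7134-3p. Signs changed only in members that were not called: miR-2411-3p under equal sums (0.075), miR-4331-3p with the GC correction, with or without the block (0.044), and miR-7137-3p with a pseudocount of 10 (0.0074), equal sums (0.35), the GC correction with or without the block (0.57), DESeq2 (0.026), the candidate line added (0.63) and 1 library left out (-0.32 to 0.26; above 0 without LW replicates 2 or 3 or MS replicates 1 or 2). The cause of these changes was not tested. Depth limits all members under 10 normalized reads, and in MS replicate 3 those of a few reads.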
